A study of Mus musculus with 32 samples.

Results

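The genes described here are the 10 that encode enzymes of the prostacyclin, prostaglandin D2 (PGD2), thromboxane and leukotriene branches of arachidonic acid metabolism: Ptgis, Ptgds, Hpgds, Tbxas1, Alox5, Alox5ap, Lta4h, Ltc4s, Alox12 and Alox15. They were chosen by name, with earlier results of these data known, and they are 10 of 45616 names measured on the arrays. Each gene stands for its brightest probe by mean over all arrays. The mice had received MCG 101, a transplantable mouse sarcoma, and RNA of each sample went on 1 of 32 one-colour arrays. The hosts were EP2 +/+ (wild type) or EP2 -/- (knockout), where EP2 is the prostaglandin E2 receptor encoded by Ptger2. The RNA came from tissue labelled either tumor stroma or tumor, so that genotype and tissue made 4 groups of 8 arrays, each with 4 female and 4 male hosts. All 4 groups carried the tumor, so none of them is tumor-free tissue. The genotype is that of the host, and the labels do not give the EP2 status of the implanted cells, the strain, age, implantation site or time. They also do not say that the arrays of a group come from separate animals, so the p-values measure the spread between these samples, which may be partly technical.

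Arachidonic acid is released from membranes by phospholipases and is turned by cyclooxygenases into PGH2, which terminal synthases convert to single prostanoids. Ptgis makes prostacyclin, a vasodilator that inhibits platelets, Tbxas1 makes thromboxane A2, which contracts vessels and activates platelets, and Ptgds and Hpgds are the lipocalin-type and the hematopoietic PGD2 synthases. Lipoxygenases act on the same acid: Alox5, helped by its activating protein Alox5ap, makes leukotriene A4, from which Lta4h makes the neutrophil attractant leukotriene B4 and Ltc4s makes the cysteinyl leukotriene C4. Alox12 and Alox15 make hydroxy fatty acids, Alox12 chiefly in platelets. In tissue the thromboxane and leukotriene enzymes are known mainly from macrophages, mast cells and granulocytes.

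Between 47.8% and 75.2% of probes were well above background on an array. On the first principal component, with 58.8% of the variance, 2 arrays labelled wild-type stroma, 65 (-68.5) and 82 (-113), fell among the tumor arrays. Sex-linked genes went against the sex label on wild-type stroma 9, knockout stroma 95 and 99 and knockout tumor 95 and 99. Ptger2, the deleted gene, was not lower in the arrays labelled knockout. Knockout minus wild type, its log2 level differed by 0.85 ± 0.37 (SE, limma adjusted p = 0.158) in stroma and by 1.06 ± 0.41 (0.977) in tumor. The sources used here do not say whether its probe lies in the deleted part, so the genotype labels were not checked by it, and every genotype direction given here rests on those labels. Between the tissues, 25.7% of all tested genes passed the test (limma, adjusted p under 0.05) as higher in stroma and 37.1% as lower. Passing as higher were 8 of 8 skeletal muscle, 8 of 8 smooth muscle and 8 of 8 endothelial marker genes, and 8 of 8 cell cycle genes passed as lower. In wild-type hosts (11.9% of all genes higher, 18.3% lower) the counts were 8, 6, 8 and 0 of 8. The tissue labels do not name these cell types.

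Promoter sequence was at hand for 7 of the 10 genes. The 250 bases before the RefSeq start (build GRCm38.p6) are shown for the pair that act on leukotriene A4, whose levels went opposite ways between the tissues, for Alox5, which supplies that substrate, and for Hpgds. That of Alox5 lies at chr6:116461179-116461428 on the minus strand, that of Ltc4s at chr11:50238533-50238782 on the minus strand, that of Lta4h at chr10:93453146-93453395 on the plus strand, and that of Hpgds at chr6:65144731-65144980 on the minus strand. Capitals mark GGGCGG (a GC box, the letters bound by Sp1-type factors) and GAGGAA (a site of the type bound by PU.1, a myeloid regulator of the ETS family), searched on both strands. The shorter ETS core, GGAA, was not marked.
Alox5: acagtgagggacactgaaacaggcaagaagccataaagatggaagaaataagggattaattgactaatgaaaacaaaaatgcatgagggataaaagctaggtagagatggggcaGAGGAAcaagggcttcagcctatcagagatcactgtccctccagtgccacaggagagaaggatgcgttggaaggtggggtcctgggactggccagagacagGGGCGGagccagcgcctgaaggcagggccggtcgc
Ltc4s: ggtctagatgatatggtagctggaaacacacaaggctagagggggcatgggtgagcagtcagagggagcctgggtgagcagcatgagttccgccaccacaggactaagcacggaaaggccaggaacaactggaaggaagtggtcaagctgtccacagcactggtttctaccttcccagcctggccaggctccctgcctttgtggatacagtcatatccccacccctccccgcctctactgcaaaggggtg
Lta4h: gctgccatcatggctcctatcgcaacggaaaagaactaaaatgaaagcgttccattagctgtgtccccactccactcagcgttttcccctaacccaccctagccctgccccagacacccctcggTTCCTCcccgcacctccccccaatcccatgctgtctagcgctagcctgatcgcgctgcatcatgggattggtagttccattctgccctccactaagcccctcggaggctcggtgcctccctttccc
Hpgds: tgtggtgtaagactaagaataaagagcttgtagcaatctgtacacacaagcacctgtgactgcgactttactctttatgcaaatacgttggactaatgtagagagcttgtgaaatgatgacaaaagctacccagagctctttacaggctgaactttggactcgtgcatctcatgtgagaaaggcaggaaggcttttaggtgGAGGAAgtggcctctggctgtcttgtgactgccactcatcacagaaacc

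The Alox5 window held 1 GC box, 35 bases before the start, and 1 PU.1-type site, 136 bases before it. Hpgds held 1 PU.1-type site, 49 bases before the start, Lta4h held 1 at 126 bases, and Ltc4s held neither motif, though it holds the shorter GGAA. No match of one motif overlapped the other in these windows. Among 32851 RefSeq promoter windows of this length, 32.7% held the GC box and 23.3% the PU.1-type site, so the letters are common, and a match is a description of the sequence.

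**Figure D1:**
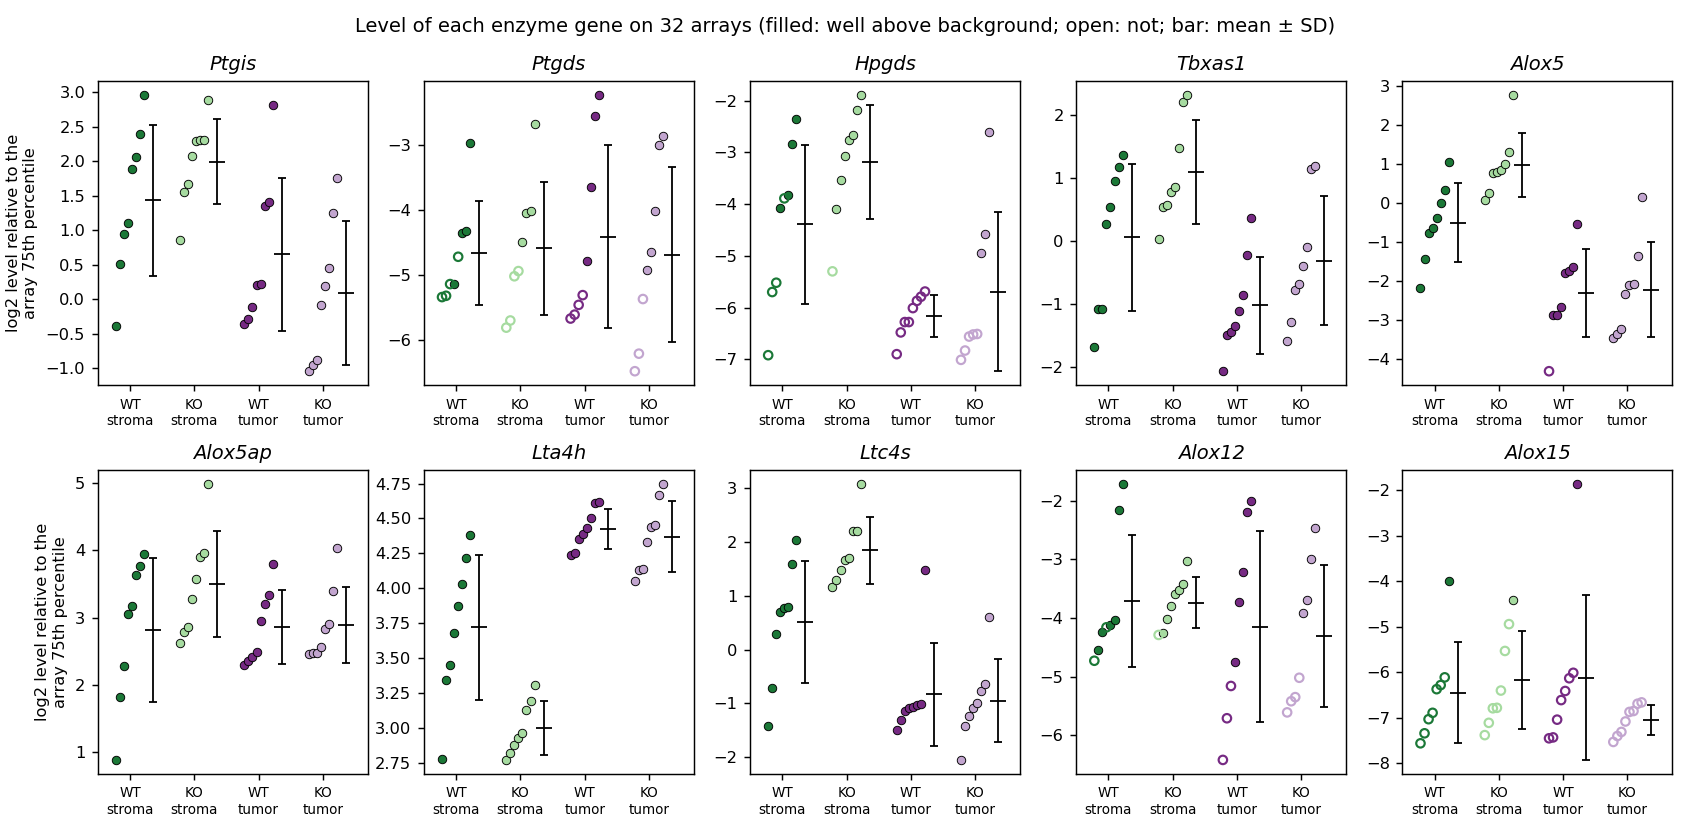
Log2 level of each enzyme gene relative to the array's 75th percentile (vertical axis) in wild-type (WT) and knockout (KO) stroma and tumor, 8 arrays a group. Filled points were well above background and open points were not. Crosses with bars give the mean ± SD. The knockout stroma arrays of Ltc4s and Lta4h do not overlap the knockout tumor arrays, and the share of all genes that separate so was not counted.

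Levels are log2 intensities relative to the 75th percentile of the array, so that a difference of 1 is a 2-fold difference in signal. Levels of different genes are not set against each other, because their probes differ. In stroma against tumor, averaged over both host genotypes, 6 of the 9 tested genes passed the test (limma, Benjamini-Hochberg adjusted p under 0.05), 5 of them higher and 1 lower in stroma. The background was high: 62.8% of all 27120 tested genes passed, 25.7% higher and 37.1% lower in stroma. The median difference of the 9 genes was 1.25, and that of all tested genes was -0.14. Hpgds entered the test through its stroma arrays, being well above background on 11 of 16 stroma and 3 of 16 tumor arrays, so its call is no independent support. Without it 5 of 8 genes passed, 4 higher and 1 lower, with a median of 0.87. In these bulk samples, fewer cells of a type and less RNA per cell cannot be told apart.

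Among the prostanoid synthases, 3 were higher in stroma. Ptgis ran from -0.39 through a median of 1.5 to 2.96 in wild-type stroma and from 0.86 through 2.18 to 2.88 in knockout stroma. In wild-type tumor it ran from -0.36 through 0.21 to 2.81, and in knockout tumor from -1.04 through 0.05 to 1.75. The groups overlapped, but 15 of 16 stroma arrays lay above the tumor median. Prostacyclin synthase was thus higher in stroma by 1.34 ± 0.31 (SE, adjusted p = 0.000506, 2.53-fold). Its second probe, dimmer but well above background on all 32 arrays, followed the first (r = 0.92) and averaged -2.26 and -1.91 in wild-type and knockout stroma against -3.28 and -3.40 in tumor.

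Thromboxane synthase, Tbxas1, ran from -1.67 through 0.41 to 1.36 in wild-type stroma and from 0.04 through 0.82 to 2.32 in knockout stroma. In tumor it ran from -2.06 through -1.22 to 0.37 in wild-type and from -1.58 through -0.53 to 1.19 in knockout hosts. Stroma and tumor overlapped, with 13 of 16 stroma arrays above the tumor median, and the difference was 1.25 ± 0.34 (SE, adjusted p = 0.00231, 2.37-fold). The group means fell in the order knockout stroma (1.10 ± 0.82), wild-type stroma (0.06 ± 1.17), knockout tumor (-0.31 ± 1.02) and wild-type tumor (-1.02 ± 0.77, SD, n = 8 each). Every neighbouring pair in this order, the stroma groups included, was closer than the larger SD of the pair.

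The PGD2 synthases were both dim. Hpgds, the enzyme of mast cells, macrophages and other blood-derived cells, was well above background on 4 of 8 wild-type stroma, 7 of 8 knockout stroma, 0 of 8 wild-type tumor and 3 of 8 knockout tumor arrays. It ran from -6.92 through -3.98 to -2.36 in wild-type stroma, from -5.30 through -2.92 to -1.89 in knockout stroma, from -6.90 through -6.15 to -5.69 in wild-type tumor and from -7.01 through -6.51 to -2.60 in knockout tumor. In stroma 15 of 16 arrays lay above the tumor median, and the fitted difference was 2.14 ± 0.44 (SE, adjusted p = 0.000134). That value is set against tumor signals at background on 13 of 16 arrays, so it gives no exact size. Because no wild-type tumor array measured it above background, the wild-type ratio has no exact size. Set against a tumor limit, the wild-type stroma mean was 1.08-fold higher. That limit is the lowest signal well above background on each tumor array, or the probe's own signal if higher. Only 4 of 8 wild-type stroma arrays were well above background themselves, so the value is no strict lower bound. With another background correction and quantile scaling the difference of Hpgds was 0.61 (adjusted p = 0.000801).

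Ptgds, the lipocalin-type synthase known from brain and other tissues, was well above background on 17 of 32 arrays. Its levels ran from -5.34 to -2.97 in wild-type stroma, from -5.81 to -2.68 in knockout stroma, from -5.67 to -2.23 in wild-type tumor and from -6.48 to -2.86 in knockout tumor, with medians of -4.93, -4.72, -5.05 and -4.78. The 4 groups covered the same range. The stroma minus tumor difference was -0.08 ± 0.37 (SE, adjusted p = 0.868), and no order of the group means exceeded their spread.

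Alox5, the 5-lipoxygenase that starts the leukotriene branch, was higher in stroma in both hosts. It ran from -2.17 through -0.51 to 1.05 in wild-type stroma and from 0.08 through 0.81 to 2.77 in knockout stroma. In tumor it ran from -4.30 through -2.24 to -0.53 in wild-type and from -3.46 through -2.21 to 0.15 in knockout hosts. All 16 stroma arrays lay above the tumor median, and 9 of 16 lay above the highest tumor array. The difference was 2.50 ± 0.33 (SE, adjusted p = 4.5e-07, 5.64-fold). Group means fell in the order knockout stroma (0.98 ± 0.82), wild-type stroma (-0.50 ± 1.01), knockout tumor (-2.21 ± 1.21) and wild-type tumor (-2.30 ± 1.13, SD, n = 8 each), and the tumor groups differed by less than their spread.

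Its helper Alox5ap, which presents arachidonic acid to Alox5, did not pass the test. It ran from 0.89 through 3.12 to 3.95 in wild-type stroma, from 2.63 through 3.42 to 4.99 in knockout stroma, from 2.30 through 2.72 to 3.79 in wild-type tumor and from 2.46 through 2.70 to 4.03 in knockout tumor. The groups overlapped throughout, and it was well above background on all 32 arrays. The difference was 0.29 ± 0.27 (SE, adjusted p = 0.368).

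The pair of enzymes that use leukotriene A4 went opposite ways. Ltc4s, which conjugates it with glutathione, ran from -1.41 through 0.74 to 2.04 in wild-type stroma and from 1.16 through 1.68 to 3.09 in knockout stroma, against -1.50 through -1.07 to 1.49 in wild-type tumor and -2.05 through -1.04 to 0.61 in knockout tumor. Every knockout stroma array lay above every knockout tumor array, while the wild-type groups overlapped. The share of all genes that separated so was not counted, and 59.4% of them passed between the tissues in knockout hosts. Ltc4s was higher in stroma by 2.07 ± 0.29 (SE, adjusted p = 1.15e-06, 4.19-fold). Lta4h, the hydrolase that makes leukotriene B4, ran from 2.78 through 3.78 to 4.38 in wild-type stroma and from 2.77 through 2.94 to 3.31 in knockout stroma, against 4.24 through 4.41 to 4.62 in wild-type tumor and 4.05 through 4.39 to 4.75 in knockout tumor. All 16 stroma arrays lay below the tumor median, and 14 of 16 lay below the lowest tumor array. The difference was -1.04 ± 0.13 (SE, adjusted p = 2.02e-07, 2.06-fold lower in stroma). The array labelled wild-type stroma 82, which lay among the tumor arrays on the first component, had both the lowest Ltc4s and the highest Lta4h of its group.

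**Figure D2:**
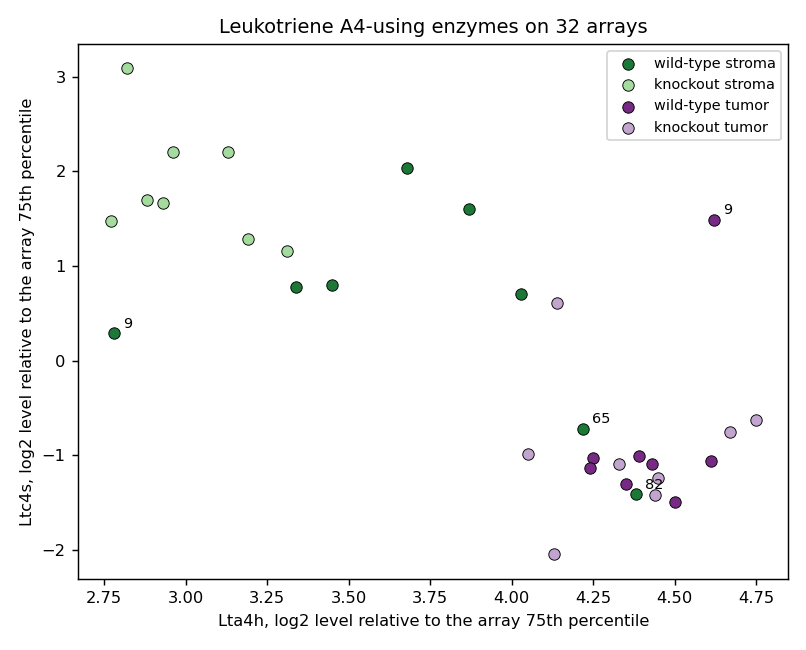
Ltc4s (vertical axis) against Lta4h (horizontal axis), both as log2 level relative to the array's 75th percentile, for 32 arrays coloured by group. Stroma lies to the upper left and tumor to the lower right, with wild-type stroma 65 and 82 near the tumor arrays and wild-type tumor 9 apart from its group at an Ltc4s level of 1.49.

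The remaining lipoxygenases were dim. Alox12, the platelet enzyme, was well above background on 22 of 32 arrays and ran from -4.73 through -4.14 to -1.71 in wild-type stroma, from -4.29 through -3.69 to -3.03 in knockout stroma, from -6.42 through -4.24 to -2.0 in wild-type tumor and from -5.61 through -4.47 to -2.47 in knockout tumor. The tumor groups spread wider than the stroma groups and overlapped them, and the difference was 0.50 ± 0.38 (SE, adjusted p = 0.259). Its second probe was not well above background on any of the 32 arrays. Alox15, the enzyme of eosinophils and some macrophages, was well above background on 3 of 32 arrays only, wild-type stroma 68 (-4.00), knockout stroma 49 (-4.42) and wild-type tumor 5 (-1.85), and was not tested.

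Within each host genotype the calls differed in number. In wild-type hosts 4 of 9 tested genes passed (background 30.2% of all genes, 11.9% higher and 18.3% lower in stroma): Alox5 (1.80 ± 0.46, SE, adjusted p = 0.00639) and Ltc4s (1.34 ± 0.41, 0.0177) were higher in stroma and Lta4h was lower (-0.70 ± 0.18, 0.00618). The fourth was Hpgds, for which no exact size can be given (adjusted p = 0.0331), and without it 3 of 8 passed. In knockout hosts 6 of 9 passed (background 59.4%, 26.3% higher and 33.1% lower): Alox5 (3.19 ± 0.46, adjusted p = 2.56e-06), Ltc4s (2.79 ± 0.41, 3.13e-06), Hpgds (2.51 ± 0.62, 0.00108), Ptgis (1.90 ± 0.44, 0.000549) and Tbxas1 (1.41 ± 0.48, 0.0132) were higher and Lta4h was lower (-1.37 ± 0.18, 9.84e-07). The Hpgds value there rests on 3 of 8 knockout tumor arrays above background, and without it 5 of 8 genes passed. Ptgis (0.78 ± 0.44, adjusted p = 0.172) and Tbxas1 (1.08 ± 0.48, 0.0847) missed the threshold in wild-type hosts. Both passed there with array weights (1.12, adjusted p = 0.024, and 1.38, 0.022), and Tbxas1 also passed without wild-type stroma 1 (1.34, 0.0427) or wild-type tumor 9 (1.31, 0.0409). The difference between the hosts was itself tested, as genotype by tissue, and 0 of 9 genes passed (limma, background 0%, 3 of 9 at an unadjusted p under 0.05 against 21.1% of all genes). The 3 were Ltc4s (1.45 ± 0.58, adjusted p = 0.167), Alox5 (1.40 ± 0.65, 0.22) and Lta4h (-0.67 ± 0.25, 0.152). Without the arrays labelled wild-type stroma 65 and 82, those 3 values were 0.90, 1.19 and -0.40, and the wild-type differences were 1.90 for Ltc4s, 2.01 for Alox5 and -0.97 for Lta4h. Over all genes that omission raised the wild-type calls from 8192 to 12890 of those tested, and it left the count of enzyme genes at 4. The Hpgds call in wild-type hosts was lost with slide as a block (adjusted p = 0.0874), with no filter (0.0538) and, among single arrays, without wild-type stroma 5, wild-type stroma 4 or wild-type tumor 45, 4 or 82 (adjusted p up to 0.0856).

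Arrays of both tissues shared each of the 6 slides, although on 1 of them all stroma arrays came from wild-type and all tumor arrays from knockout hosts. Within slides Alox5 was higher in stroma on 6 of 6 (1.51 to 3.21), Ltc4s on 6 of 6 (0.61 to 3.16), Hpgds on 6 of 6 (0.45 to 3.44), Ptgis on 6 of 6 (0.62 to 2.73) and Tbxas1 on 5 of 6 (-0.07 to 1.88). Lta4h was lower on 6 of 6 (-1.46 to -0.47). These counts pool host genotypes whose shares differed between the tissues on other slides too. Within wild-type hosts, 4 slides held both tissues, and Alox5 and Ltc4s were higher and Lta4h lower on 4 of 4. Ptgis was higher on only 2 of 4 (-0.88 to 2.09), Hpgds on 3 of 4 (-1.03 to 3.25) and Tbxas1 on 3 of 4 (-0.61 to 1.84). Within knockout hosts each of these genes kept its pooled direction on 4 of 4.

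**Figure D3:**
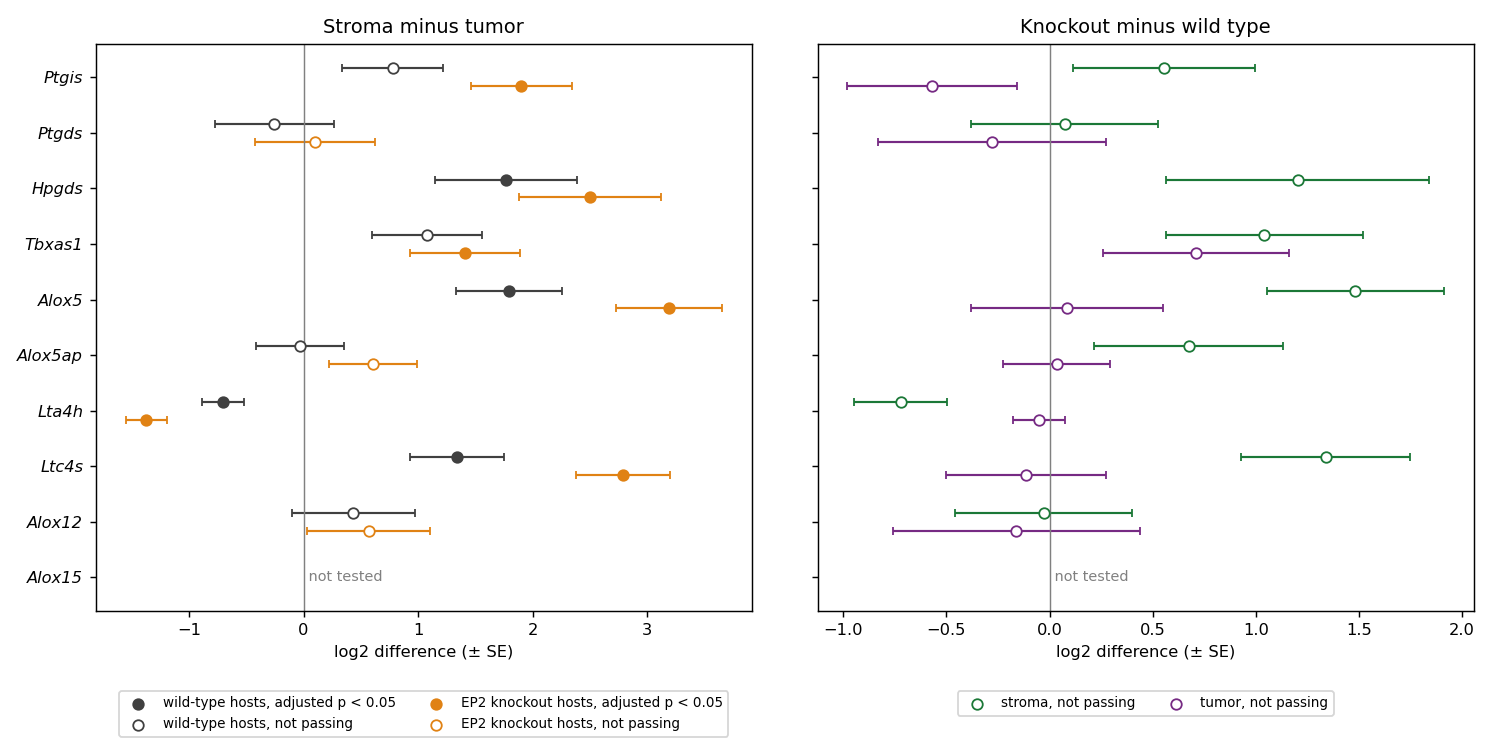
Log2 differences with their SE for each gene, stroma minus tumor in wild-type and knockout hosts (left) and arrays labelled knockout minus wild type in stroma and tumor (right). Filled points passed an adjusted p under 0.05, and the wild-type Hpgds point on the left is set against tumor arrays that were all at background. On the right no point passed, and the stroma values of Alox5, Ltc4s and Lta4h lie farthest from 0 in units of their SE.

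The host genotype was compared within each tissue, to ask whether loss of EP2 in the host goes with altered expression. In stroma 0 of 9 tested genes passed (limma, background 0% of 24782). At an unadjusted p under 0.05 there were 4 of 9, against 28.2% of all genes, and the smallest adjusted p of any gene was 0.113. Alox5 was 1.48 ± 0.43 (SE, limma adjusted p = 0.12) higher in the arrays labelled knockout, with 8 of 8 above the wild-type median. Ltc4s was 1.34 ± 0.41 higher (adjusted p = 0.12), also with 8 of 8 above that median, and Lta4h was 0.72 lower (-0.72 ± 0.22, adjusted p = 0.12), with 8 of 8 below it. Tbxas1 differed by 1.04 ± 0.48 (adjusted p = 0.171, 7 of 8 above). The 4 genes overlapped between the genotypes, since 2, 3, 1 and 3 of 8 knockout arrays lay beyond the whole wild-type range for Alox5, Ltc4s, Lta4h and Tbxas1. The SD of Lta4h was 0.19 in knockout and 0.52 in wild-type stroma, a gap that was not tested.

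The other 5 tested genes differed in stroma by 1.2 ± 0.64 (Hpgds, adjusted p = 0.214), 0.67 ± 0.46 (Alox5ap, 0.317), 0.55 ± 0.44 (Ptgis, 0.391), 0.07 ± 0.45 (Ptgds, 0.921) and -0.03 ± 0.43 (Alox12, 0.969). The sign for Ptgds turned with quantile scaling and that for Alox12 with the percentile of bright probes. Within the 5 slides that held both genotypes, Alox5 was higher in knockout stroma on 5 of 5 (1.04 to 2.23) and Ltc4s on 5 of 5 (0.87 to 2.20), while Lta4h was lower on 4 of 5 (-1.45 to 0.53).

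The arrays labelled wild-type stroma 65 and 82 carried part of these values. Without them Ltc4s differed by 0.78 (adjusted p = 0.652), Lta4h by -0.45 (0.652) and Alox5 by 1.27 (0.643). Other omissions moved the p-values the other way. Alox5, Ltc4s and Lta4h, 3 of 8 tested enzyme genes, passed when wild-type stroma 9 was left out (limma adjusted p = 0.0294, 0.0275 and 0.00634). Of all genes, 8325 of 24551 passed then. The same 3 genes also passed without wild-type stroma 4 (0.0171, 0.00895 and 0.0415, against 5116 of 24397 genes called). Without the arrays that go against their sex label they passed too (0.0368, 0.0384 and 0.0232, against 5508 of 24024).

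In tumor 0 of 8 tested genes passed by genotype (limma, background 0% of 23749), and 0 of 8 reached an unadjusted p under 0.05, against 3.33% of all genes. The differences ran from -0.57 ± 0.41 for Ptgis to 0.71 ± 0.45 for Tbxas1, and adjusted p was at least 0.977. Alox5 differed by 0.08 ± 0.46, Ltc4s by -0.11 ± 0.39 and Lta4h by -0.05 ± 0.13 (SE), and the sign of each turned in some settings. Hpgds and Alox15 were above background on too few tumor arrays to be tested. The array labelled knockout tumor 81 was the highest of its group for 8 of the 10 genes, Hpgds (-2.60), Tbxas1 (1.19), Alox5 (0.15) and Ltc4s (0.61) among them. It also had the highest macrophage (7.44), mast cell (4.45), T cell (2.88), platelet (4.98), smooth muscle (6.25) and adipocyte (5.64) sums of its group, each the log2 of the summed signal of a marker list.

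Host sex was compared by label across both genotypes, male minus female, although 3 of 8 male stroma and 2 of 8 male tumor arrays went against that label. In stroma 0 of 9 genes passed (limma, background 0%), and 0 of 9 had an unadjusted p under 0.05, against 2.24% of all genes. In tumor 0 of 8 passed (background 0%), while 4 of 8 had an unadjusted p under 0.05, against 7.21% of all genes. Those 4 were Ptgis (1.23 ± 0.41, SE, adjusted p = 0.563), Ptgds (-1.44 ± 0.55, 0.615), Alox5 (1.21 ± 0.46, 0.615) and Alox12 (1.45 ± 0.60, 0.638). Without the arrays that go against their label, Ptgis differed by 1.53 (adjusted p = 0.219), Alox5 by 1.58 (0.24) and Alox12 by 1.65 (0.352), and Ptgds was not tested. The male wild-type tumors 9, 65 and 82 had neutrophil sums of 8.14, 8.39 and 9.03, against 5.77 to 6.73 in the other 13 tumor arrays, and the part of this in the sex values was not tested.

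Markers of some leukocytes were higher in stroma, set against the 25.7% of all genes called higher. Of the 12 macrophage genes 11 were higher and 0 lower (median difference 1.64), as were 7 of 8 mast cell genes (1.90), 3 of 4 tested B cell genes (1.84) and 3 of 5 tested eosinophil genes (1.18). Other lists stayed near or below that share, with 1 of 8 neutrophil genes (-0.07), 1 of 6 T cell genes (0.09) and 1 of 6 tested platelet genes (0.17) higher, and 2 dendritic cell genes higher and 1 lower of 6 tested (0.42). Lists of other tissue cells shifted as well, with 6 of 7 adipocyte (5.04) and 5 of 6 Schwann cell genes (2.57) higher, and 5 of 8 fibroblast genes higher and 1 lower (1.51). Within stroma alone 5 eosinophil, 4 B cell, 8 mast cell, 7 adipocyte, 6 Schwann cell and 6 dendritic cell genes passed the filter. Within tumor alone 2, 3, 7, 5, 5 and 4 did. Some genes thus entered the tissue test through their stroma arrays, and their calls are no independent support. The summed log2 level of the macrophage list ran from 4.83 to 8.07 in wild-type stroma, 6.74 to 8.76 in knockout stroma, 4.87 to 6.63 in wild-type tumor and 5.35 to 7.44 in knockout tumor. For the mast cell list the ranges were 3.15 to 6.07, 3.88 to 5.87, 1.66 to 4.58 and 0.58 to 4.45. By genotype in stroma 0 genes of either list passed, with 12 of 12 macrophage genes (median 1.15) and 8 of 8 mast cell genes (median 0.73) on the higher side in the arrays labelled knockout, against a median of 0.08 over all genes. Cell cycle genes were on the lower side there in 8 of 8 (median -1.48, 0 passed), and their summed level ran from 1.45 to 7.27 in wild-type and from 2.82 to 5.76 in knockout stroma. Epx, the eosinophil peroxidase gene, was well above background on 0 of 32 arrays, and the platelet genes Gp5 and Gp1bb on 2 and 3 of 32. The part of these cell types in the enzyme differences was not tested.

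To describe how the enzyme genes varied together within groups, the group means were removed and genes compared over 30 arrays, leaving out wild-type stroma 65 and 82. The arrays share tissue makeup and scaling, so these correlations are descriptions. Tbxas1 was most like the macrophage marker gene Adgre1 (r = 0.95, Spearman's rho = 0.95), followed by Ly86 and the complement gene C1qc (r = 0.94 each). Hpgds was most like C1qb (r = 0.88, rho = 0.85), with 5430427O19Rik and Lst1 next (0.87 and 0.86). Alox5 was most like F13a1, the coagulation factor XIII A chain (r = 0.90, rho = 0.90), and the chemokine genes Ccl6 (0.90) and Ccl9 (0.88). Alox5ap was most like Metrnl, Cmtm6 and Il10rb (0.94 each). Leaving out the 2 arrays farthest from the member's median kept r at 0.78 or more for all of these.

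Ltc4s was most like Mfsd6 (r = 0.82), F13a1 (0.82) and Cd209g (0.80), but its rank correlations were 0.60 to 0.64, and without the 2 arrays farthest from its median r fell to 0.67, 0.61 and 0.72. Alox12 was most like the platelet receptor gene Clec1b (r = 0.86), Nrgn (0.85) and Gp9 (0.79), the last a subunit of the platelet von Willebrand factor receptor. Ptgis was most like Azin2 (0.87), 5830403F22Rik and Glis3 (0.85 each). For Ptgds the nearest genes were Sox2ot (0.80), Hey1 (0.78) and Mamdc4 (0.76). Lta4h went with Hmg20b, Unc45a (0.91 each) and Mterf1a (0.90).

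**Figure D4:**
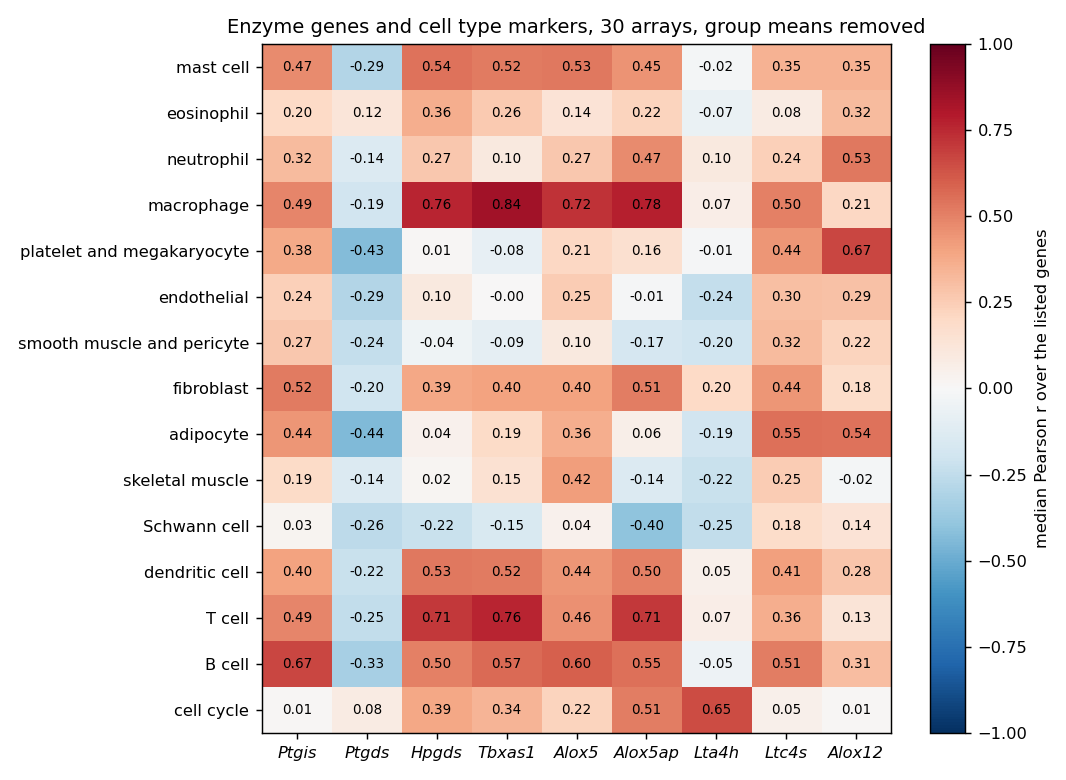
Median Pearson r between each enzyme gene (columns) and the genes of each cell type or cell cycle marker list (rows), over 30 arrays with group means removed. The macrophage row is highest for Tbxas1 (0.84), the platelet row for Alox12 (0.67) and the cell cycle row for Lta4h (0.65).

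Set against the marker lists, 4 enzyme genes varied with the macrophage list, with a median r of 0.84 for Tbxas1, 0.78 for Alox5ap, 0.76 for Hpgds and 0.72 for Alox5. The same median was 0.50 for Ltc4s, 0.49 for Ptgis, 0.21 for Alox12, 0.07 for Lta4h and -0.19 for Ptgds. Ltc4s was nearest the adipocyte list (0.55) and Ptgis the B cell list (0.67), ahead of fibroblast genes (0.52). The T cell list gave 0.76 for Tbxas1 and 0.71 for both Hpgds and Alox5ap, so macrophage and T cell genes were not separated by it. Alox12 was nearest the platelet list (0.67) and Lta4h the cell cycle list (0.65). Among the enzyme genes themselves the highest values were Hpgds with Tbxas1 (r = 0.80), Hpgds with Alox5ap (0.77), Tbxas1 with Alox5ap (0.76), Ptgis with Ltc4s (0.73) and Alox5 with Ltc4s (0.71). Lta4h was near 0 with Alox5 (0.02), and Ltc4s and Lta4h, opposite between tissues, gave 0.18 within groups.

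Several enzyme genes had their highest or lowest value of a group on the same array. Knockout stroma 15 was the highest of its group for Ptgis, Tbxas1, Alox5, Alox5ap and Ltc4s, and also for the macrophage list (8.76). Wild-type tumor 9 was the highest for Ptgis, Tbxas1, Alox5, Lta4h and Ltc4s, with the highest macrophage (6.63) and platelet (6.33) sums of its group. Wild-type stroma 9 was the lowest for Hpgds, Tbxas1, Alox5ap and Lta4h, with the lowest macrophage (4.83) and cell cycle (1.45) sums.

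The steps around these enzymes were described from lists of pathway genes. Their counts are read against the 62.8% of all genes that passed between the tissues. Of 9 tested genes for substrate release and cyclooxygenases, 4 were higher and 3 lower in stroma. The phospholipases Pla2g5 (3.23 ± 0.47, SE, adjusted p = 1.78e-06) and Pla2g2d (2.71 ± 0.32, 1.12e-07) were higher. In tumor, though, Pla2g5 was well above background on only 1 of 8 arrays of each genotype and Pla2g2d on 2 and 4 of 8, so neither difference is an exact size. Neither passed the filter within tumor alone. Both entered the test through their stroma arrays, so their calls among the 4 are no independent support. Pla2g4a, the cytosolic phospholipase that releases arachidonic acid, was lower (-2.0 ± 0.34, adjusted p = 1.31e-05), as was the inducible cyclooxygenase Ptgs2 (-3.48 ± 0.56, 6.53e-06). The other cyclooxygenase gene, Ptgs1, went the opposite way and was higher in stroma (1.9 ± 0.33, SE, limma adjusted p = 2.04e-05). With the other background correction Pla2g5 and Pla2g2d differed by 1.31 and 1.35. Of the receptors, 1 of 3 tested prostanoid receptor genes was higher, the thromboxane receptor Tbxa2r (0.97 ± 0.34, adjusted p = 0.0149), and it did not pass with that correction (0.36, 0.114). Within single hosts Tbxa2r did not pass (limma adjusted p = 0.101 in wild-type and 0.102 in knockout hosts). The prostacyclin receptor Ptgir was higher in stroma in knockout hosts (0.97 ± 0.28, 0.00372). In wild-type hosts Ptgir was on the lower side (-0.65 ± 0.28, 0.0736), and no gene passed as genotype by tissue. Of 4 tested leukotriene and lipoxin receptor genes 1 was higher, Cysltr1, the receptor of the cysteinyl leukotrienes that Ltc4s begins (2.08 ± 0.32, adjusted p = 3.49e-06). None of the 4 other lipoxygenase genes was above background on enough arrays to be tested.

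Ltc4s belongs to a family of membrane enzymes that act with glutathione, and its 4 tested relatives were split. Mgst1 (3.22 ± 0.39, SE, adjusted p = 1.66e-07) and Mgst3 (0.84 ± 0.29, 0.0133) were higher in stroma, and Mgst2 (-1.64 ± 0.25, 3.07e-06) and the prostaglandin E synthase Ptges (-0.37 ± 0.11, 0.00462) were lower. Mgst3 did not pass with array weights (0.42, adjusted p = 0.0592), and Ptges differed by -1.85 as the mean of all its probes. Of 10 tested genes for conversion, export and breakdown, 5 were higher and 2 lower, a share close to that of all genes. Dpep1, which turns leukotriene D4 into E4 (4.47 ± 0.53, adjusted p = 1.25e-07), Ggt5, which turns C4 into D4 (2.54 ± 0.42, 8.19e-06; 1.36 with the other background correction), the epoxide hydrolase Ephx2 (2.91 ± 0.35, 1.57e-07) and the exporter Abcc4 (0.81 ± 0.13, 8.73e-06) were among the higher ones. By genotype in stroma 0 genes of these lists passed: Ggt5 differed by 1.59 ± 0.38 (SE, adjusted p = 0.12), Cysltr1 by 1.19 ± 0.43 (0.124), Pla2g4a by -1.32 ± 0.62 (0.177) and Ptgs2 by -2.06 ± 1.0 (0.188). As with the enzyme genes, these values depended on the arrays used. Ggt5 passed without wild-type stroma 4 (adjusted p = 0.00975), without wild-type stroma 9 (0.00742), without the arrays against their sex label (0.027) and with array weights (2.24, 6.55e-06). Cysltr1 passed without wild-type stroma 4 (0.0284) and with array weights (0.00692). Pla2g4a and Ptgs2 passed without wild-type stroma 9 (0.00776 and 0.00992), without the arrays against their sex label (0.0278 and 0.0421) and with array weights (-2.21 and -4.18). Without wild-type stroma 65 and 82 the differences were 1.08 for Ggt5, 0.90 for Cysltr1, -0.45 for Pla2g4a and -0.52 for Ptgs2, with adjusted p of 0.643 to 0.853.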

How the data were processed

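Samples were labelled with Cy3 for single-channel Agilent arrays, per the labels' protocols. The submitters' processing notes name Agilent Feature Extraction 10.7.3.1 for reading the scans. The authors' deposited scanner files give each spot's processed signal, a background-subtracted intensity that is linear and not normalized between arrays, per the file headers. The authors' deposited value table served as an alternative within each tissue. How the authors made it is not given in the sources used here, but its deposited values were matched, to 0.01, by log2 levels computed here and centred on each probe's median within the tissue, for 99.5% of stroma values and for 91.3% of tumor values. Its column medians ran from -0.315 to 0.563.

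Control spots and outlier spots (58 to 483 per array) were left out, replicate spots averaged, and the array's 75th percentile over 56605 probes taken off the log2 signal. Names came from RefSeq accessions: 32994 probes matched and 23611 kept the file's name. Genes entered a test if at least 8 of its arrays were well above background and no more than 2 values were missing. Differences were fitted with limma 3.58.1 (lmFit, eBayes) in R 4.3.3 with 1 mean per genotype, sex and tissue, and adjusted over all tested genes by Benjamini-Hochberg. Within a tissue 16 arrays entered the fit, and for tissue and genotype by tissue all 32. The script was tested on simulated data with 200 changed genes. A log2 change of 1 was recovered for 66% of them between tissues, but for 14% by genotype in stroma and 15.5% in tumor. For a change of 2 the shares were 94.5%, 75% and 71%. Only 200 of 26717 genes were changed there, whereas on the real arrays 62.8% of all tested genes passed between the tissues. How far these shares hold for the real arrays was not tested. Arrays lay on 6 slides, and their number limits the precision. The members and gene lists were chosen with earlier results of these data known.

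Genes named are the 10 enzyme genes and up to 4 genes of each pathway list with the smallest adjusted p in stroma against tumor. The 3 genes most like each enzyme gene were named as well. Ptgs1, as the other cyclooxygenase, Ptgir, as the prostacyclin receptor, and single markers, for their absence, were named after their values were seen. Alternatives were other scaling, normexp background correction (offset 50, on the median spot signal), filters, probe rules, variance models, array weights, slide, sex and replicate blocks, and left-out arrays. The rest used Python 3.11.15 with numpy 2.4.6 and pandas 2.3.3, and matplotlib 3.10.9 drew the figures.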

Additional observations from a re-analysis of the deposited data

Results flagged for a closer look

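Within each group of 8 arrays, the highest and lowest array of every enzyme gene was compared with its nearest neighbour relative to the whole range. Of 40 gene and group combinations, 5 had an array that stood apart at the 95% level of Dixon's test, and chance alone would give about 1 in 20. Ptgds in wild-type stroma 45 was at -2.97, with the next array at -4.32. Alox5 in knockout stroma 15 was at 2.77, with the next at 1.32. Ltc4s in wild-type tumor 9 was at 1.49, while the other 7 arrays of that group were at or below -1.01. Alox15 was at -4.00 in wild-type stroma 68, with the next at -6.11, and at -1.85 in wild-type tumor 5, with the next at -6.01. That last array had the most outlier spots (483) and the highest share of probes well above background (75.2%).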

How the results depend on the processing

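In stroma against tumor, 6 enzyme genes passed the threshold in every alternative run except a filter on all arrays. That filter tested 5 enzyme genes and called 4, and the uncalled gene was Alox5ap, which had not passed before. Alox5 and Hpgds were not well above background on every array, so that filter did not test them. In knockout hosts the count was 4 with that filter, 7 with array weights and 6 otherwise. In wild-type hosts that filter called 2 of 5 (5312 of 16860 genes called), array weights called 6, and no filter or the slide block called 3. Leaving out single arrays gave 3 to 5. The genotype in stroma count of 0 rose to 3 of 9 with array weights, a smaller share than that of all genes (16147 of 24782 called). It was 3 of 8 without arrays against their sex label (5508 of 24024) and 3 of 9 with all 32 arrays in 1 fit (4336 of 27120). When single arrays were left out it ran from 0 to 3. The genotype by tissue count rose from 0 to 3 of 9 with array weights, again a smaller share than that of all genes (13199 of 27120 called). It was 1 of 9 without arrays against their sex label (2130 of 26502). When single arrays were left out it ran from 0 to 1, at 1 without wild-type stroma 4 (2507 of 26911) or wild-type stroma 9 (5273 of 26977). The correlations could not settle whether stroma and tumor samples with the same number came from the same host. Of 15 numbers found in both tissues, 9 gave a correlation over 0.1 (-0.044 to 0.343). Of the 15 stroma arrays, 3 correlated best with their own number, and the random block correlation was 0.107. With the replicate number as a random or a fixed replicate block the counts were 6, 4, 6 and 0 of 9 for stroma against tumor, the same in wild-type and in knockout hosts, and genotype by tissue.

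The differences whose sign turned had not passed the threshold, and the cause was not tested. By genotype in stroma, Ptgds was -0.10 with quantile scaling, -0.008 with normexp and quantile scaling and -0.064 in female hosts alone. Alox12 was 0.059 with the percentile of bright probes, 0.39 with array weights and 0.027 in female hosts. Ptges was 0.0083, 0.0018, 0.072 and 0.017 with quantile scaling, normexp, bright probes and array weights, 0.17 without arrays against their sex label and 0.10 in male hosts. Tbxa2r was 0.0598 with array weights, 0.15 with the slide block and 0.29 in female hosts. Mgst3 was -0.27 with the slide block and, without wild-type stroma 65 and 82, Mgst3 was -0.20 and Ephx2 -0.087, while Pla2g5 was -0.041 in female hosts. Both had been 0.97 with all arrays, and both passed with array weights (Ephx2 2.07, adjusted p = 0.000102, and Pla2g5 1.74, 0.00515), Ephx2 also without wild-type stroma 9 and Pla2g5 without arrays against their sex label.

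By genotype in tumor, Alox12 was 0.33 with quantile scaling, 0.014 with normexp and 0.042 without arrays against their sex label. Alox5ap was -0.022, -0.046, -0.036 and -0.14 with quantile scaling, normexp, bright probes and array weights, -0.22 in male hosts and -0.24 without knockout tumor 51 and 81, an alternative chosen after seeing the data. Ptgds was 0.021 with quantile scaling and 0.018 with normexp. Alox5 was -0.32 with array weights, -0.46 in female hosts and -0.14 without knockout tumor 51 and 81. Ltc4s was 0.0097 with array weights, 0.37 with the slide block, 0.052 without arrays against their sex label and 0.0024 in male hosts. Lta4h was 0.094 with the slide block, 0.06 in female hosts and 0.026 without knockout tumor 51 and 81.

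Between tissues in wild-type hosts, Alox5ap was 0.018, 0.029, 0.013 and 0.13 with quantile scaling, normexp, bright probes and array weights and 0.24 without arrays against their sex label, and Ptgds was 0.19 with array weights. In knockout hosts Ptgds was -0.26, -0.11, -0.057 and -0.15 with quantile scaling, normexp, the slide block and without knockout tumor 51 and 81, and over both it was 0.046 with bright probes, 0.34 with array weights and 0.014 with the fixed replicate block. For genotype by tissue, Alox12 was -0.52, -0.18, -0.16, -0.16 and -0.13 with quantile scaling, normexp, without wild-type stroma 65 and 82, without arrays against their sex label and with the fixed replicate block. Ptgds was -0.12 and -0.026 with quantile scaling and normexp, and Hpgds was -0.25 without arrays against their sex label.

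Leaving out single arrays gave, by genotype in stroma, -0.18 to 0.29 for Alox12, -0.10 to 0.0645 for Ptges, -0.37 to 0.24 for Tbxa2r and -0.0753 to 0.26 for Ptgds. In tumor it gave -0.55 to 0.12 for Alox12, -0.19 to 0.32 for Alox5, -0.14 to 0.14 for Alox5ap and -0.30 to 0.22 for Ltc4s. Between tissues it gave -0.24 to 0.24 for Alox5ap in wild-type hosts, -0.23 to 0.46 for Ptgds in knockout hosts and -0.24 to 0.10 for Ptgds over both. For Alox12 in genotype by tissue the range was -0.14 to 0.52. Signal over background limits Ptgds, Hpgds, Alox12 and Alox15, whose low values carry little order.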
